A study of Mus musculus with 12 samples.

Results

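The genes described here encode the epidermal growth factor (EGF) receptor, 5 of its ligands and an inhibitor that the activated receptor itself induces. They are Hbegf, Areg, Ereg, Tgfa, Btc, Egfr and Errfi1, and they were taken by gene symbol from the deposited tables, whatever their values. The 7 genes were represented by 11 of the 45281 probes on the array. RNA of hip cartilage from C57BL6 mice, labelled as 4 to 6 weeks old, had been hybridized to Illumina mouse BeadChips, which read each gene by probes fixed to beads. The 12 arrays formed 4 groups of 3, control and injured hips of WT mice and control and injured hips of Mapk9 KO mice, where Mapk9 encodes a c-Jun N-terminal kinase. Injury was avulsion of the femoral epiphysis, and injured cartilage was kept for 4 h in serum-free medium, whereas control cartilage was snap-frozen at once. Injury and 4 h of culture therefore cannot be told apart in any injury change below. Each replicate pooled the hips of several animals, so the spread between arrays is that between pools, and how the Mapk9 allele was made is not given in the sources used here.

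The EGF receptor is a tyrosine kinase of the cell surface. Its ligands are made as membrane-anchored precursors that are cut free by metalloproteases such as ADAM17, and the bound receptor signals through RAS and the ERK kinases. ERK signalling induces genes for some of the ligands and for inhibitors such as ERRFI1 (also called MIG6), which binds the receptor kinase and promotes receptor removal. In cartilage, the pathway is known for its part in growth plate maturation and in maintenance of the joint surface, and mice without Errfi1 develop joint degeneration.

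Of the 7 genes, 4 were in the deposited normalized table, Hbegf, Areg, Egfr and Errfi1, with 6 probes. The normalized table lists Hbegf under its older name Dtr and Errfi1 under 1300002F13Rik. Values below are on the log2 scale of that table unless called a signal. A probe was called detected on an array when its deposited detection p-value was under 0.05, and the level of one probe is not set against that of another. A change counted as past the threshold when the fold was above 2 and the adjusted p under 0.05, by limma, with p-values adjusted over the 21004 probes of the table (Benjamini-Hochberg). On the WT arrays, all 4 genes of the table had a probe past this threshold, 3 higher and 1 lower post injury, against a background of 17.3% of all 14333 genes in the table (8.7% higher and 8.58% lower). On the Mapk9 KO arrays the same 4 genes passed in the same directions, against a background of 21.8% (11% higher and 10.8% lower). The control and injured arrays of these 4 probes did not overlap in either genotype, which held upwards for 20.3% and downwards for 20.8% of all probes in WT, and for 24.5% and 25.2% in Mapk9 KO. Areg had entered the table only through the injured arrays, which could by itself give it a difference. The genes with no probe in the table, Ereg, Tgfa and Btc, were undetected on all 12 arrays. With 3 arrays in each group, the smallest two-sided p of an exact permutation test is 0.1. In whole tissue, fewer cells of a type and less RNA per cell cannot be told apart.

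**Figure D1:**
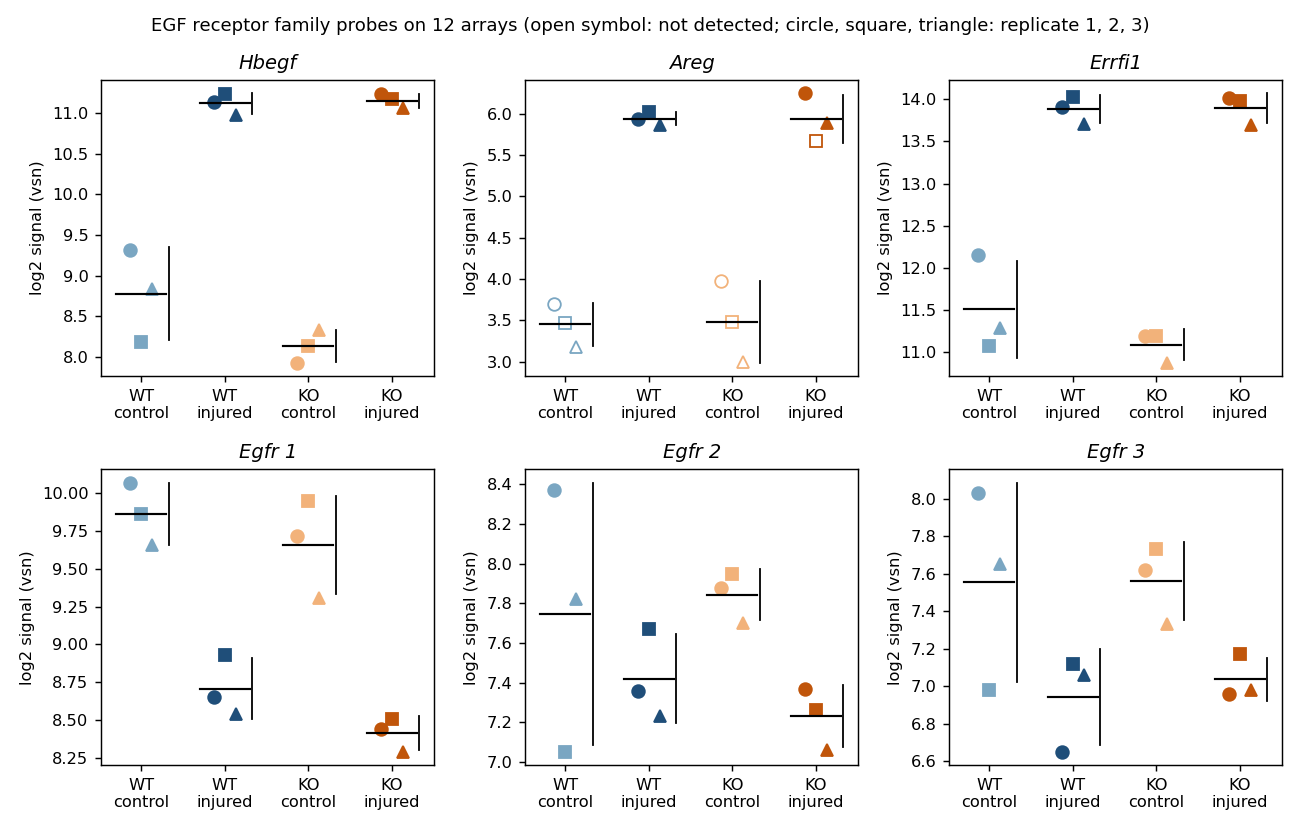
Log2 signal (vsn, vertical axis) of the 6 probes in the normalized table on each array, by group; symbols are arrays, horizontal lines group means and vertical lines 1 SD either side (n = 3). Hbegf, Areg and Errfi1 were higher on every injured array than on every control array, and Egfr 1 was lower, whereas the groups of Egfr 2 and Egfr 3 overlapped in WT.

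The tissue label was checked against marker genes, and the Mapk9 label against Mapk9. Of 11 chondrocyte markers, 9 were in the table and all 9 were detected on all arrays of every group, with mean log2 levels of 10.71 to 11.33 on WT control, 12.29 to 12.57 on WT injured, 10.63 to 11.28 on Mapk9 KO control and 12.33 to 12.56 on Mapk9 KO injured arrays. All 12 skeletal muscle markers were detected on the control arrays too, with mean levels of 11.51 to 12.76 (WT) and 12.91 to 13.34 (Mapk9 KO), and they lay at 8.47 to 10.62 and 8.99 to 10.31 on the injured arrays. The 7 neutrophil markers lay at 12.65 to 13.27 and 13.71 to 13.93 on WT control and injured arrays, and at 13.03 to 13.48 and 13.43 to 13.88 on the Mapk9 KO arrays, and 4 of them rose in each genotype. Markers of muscle and of neutrophils were thus detected beside those of cartilage. The 2 osteoclast markers in the table went from 10.74 to 11.06 down to 9.51 to 10.49 in WT and from 11.08 to 11.27 down to 9.04 to 9.36 in Mapk9 KO, and the 4 adipocyte markers from 5.96 to 7.30 down to 5.27 to 5.57 and from 6.44 to 8.55 down to 5.49 to 5.57. The mean of 7 macrophage and monocyte markers lay at 9.04 to 9.50 over all arrays, but its genes moved apart: 2 rose and 3 fell in WT and 2 rose and 4 fell in Mapk9 KO, with changes of 5.01 and 5.33 for Cd14 and of -1.87 and -2.21 for the main probe of Csf1r. Of 5 osteoblast markers (means of 10.98 to 11.80) 2 fell in each genotype. Erythroid markers had means of 12.97 to 13.87 and endothelial markers of 8.46 to 8.99, with 1 of 6 higher in WT. The 4 mast cell markers lay at 6.15 to 7.14 on WT control and 6.21 to 6.53 on WT injured arrays, and at 6.78 to 7.53 and 5.94 to 6.38 on the Mapk9 KO arrays, where 2 of them passed as lower, 1 of these (Tpsb2) undetected on every array. In WT 1 of them rose and 1 fell. T cell markers lay at 5.29 to 6.35. Of the 9 chondrocyte markers, 6 rose in WT and 7 in Mapk9 KO, and 1 fell in WT (Col11a1, not at its main probe). Col2a1 and Prg4 passed in neither genotype, with main-probe changes of 0.54 and 0.03 and of 0.34 and -0.28. Marker levels of chondrocytes, muscle, neutrophils, osteoclasts and adipocytes and single markers of macrophages, osteoblasts, mast cells and endothelium therefore moved with the injury changes reported below, and their part in these changes was not tested. Of 7 keratinocyte and epithelial markers, a cell type in which EGF ligands are abundant, 2 were in the table, at mean levels of 7.36 to 7.94 over all groups. The brighter Mapk9 probe lay at 10.50 to 10.90 on WT control arrays and at 9.14 to 9.28 on Mapk9 KO control arrays, a change of -1.57 (adjusted p = 0.0151 by limma), and it was still detected on all Mapk9 KO arrays. Another Mapk9 probe was undetected on all of them.

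Among the ligands, Hbegf was detected on all 12 arrays and was the ligand with the clearest rise. It encodes heparin-binding EGF-like growth factor, which binds the EGF receptor and ERBB4 and is anchored to the matrix through heparan sulfate. On the WT control arrays its log2 level was 9.32, 8.18 and 8.83 in replicates 1, 2 and 3, and on the WT injured arrays 11.14, 11.23 and 10.98. On the Mapk9 KO arrays it was 7.93, 8.14 and 8.33 in controls and 11.23, 11.17 and 11.06 post injury. Every injured array lay above every control array. The control arrays of WT spread over more than 1 log2 unit, with replicate 1 highest, while all 6 injured arrays lay between 10.98 and 11.23.

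Hbegf rose from a mean of 8.78 ± 0.57 to 11.12 ± 0.13 in WT (SD, n = 3 arrays per group), a log2 change of 2.34 (SE 0.28, adjusted p = 0.000292 by limma) or 5.07-fold. In Mapk9 KO it rose from 8.14 ± 0.20 to 11.16 ± 0.09, a log2 change of 3.02 (SE 0.18, adjusted p = 6.4e-07) or 8.12-fold. By replicate number the rise was 1.82, 3.05 and 2.15 log2 units in WT and 3.31, 3.03 and 2.73 in Mapk9 KO. The difference between the genotypes in this rise was 0.68 log2 units (SE 0.34, 95% interval -0.05 to 1.41, adjusted p = 0.53 for the interaction), so a larger rise without Mapk9 was not shown. With each array left out in turn this difference lay between 0.41 and 0.98.

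Areg encodes amphiregulin, a ligand of the EGF receptor alone. Its probe was undetected on the 6 control arrays and was detected on 3 of 3 WT injured and 2 of 3 Mapk9 KO injured arrays. Its signal before normalization was 136.1, 99.3 and 132.5 on the WT control arrays and 190.7, 148 and 169.8 on the WT injured arrays. On the Mapk9 KO arrays the signal was 124, 103.4 and 113.7 in controls and 205.8, 135.4 and 186.2 post injury. Within each genotype every injured array lay above the control arrays on the normalized scale, but the detected values sat at the edge of detection, with detection p-values of 0.0214 to 0.0481, and Mapk9 KO injured replicate 2 missed it (detection p-value 0.0684). On each array the Areg signal was 0.567 to 0.740 of the lowest signal of any detected probe in controls and 0.978 to 1.07 of it post injury.

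On the normalized log2 scale Areg went from 3.45 ± 0.26 to 5.94 ± 0.08 in WT, a fitted change of 2.49 (SE 0.21, adjusted p = 3.56e-05 by limma). In Mapk9 KO it went from 3.48 ± 0.50 to 5.94 ± 0.29, a fitted change of 2.45 (SE 0.26, adjusted p = 3.64e-05). Since the control level is only a bound, the supported rise in WT was at least 1.07-fold, set against the lowest detected value of each control array, and in Mapk9 KO no fold above 1 was supported. Without background correction the fitted changes were 0.57 and 0.55, and neither passed the fold limit. The size of the Areg rise thus depended on how background was removed, while its direction did not change under any alternative.

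The other ligands gave no measurable level. Ereg (epiregulin), with 2 probes, had signals of 96.7 to 139.5 and 96.1 to 134.7 over the 12 arrays, with detection p-values from 0.249 to 0.955. Tgfa (transforming growth factor alpha) came closest to detection, with signals of 122.9 to 184.1 and a lowest detection p-value of 0.0534. Btc (betacellulin) had signals of 104.6 to 173.7, with detection p-values of 0.0951 to 0.712. A low level of these transcripts was not detectable with these probes and arrays, and no fold is given because both groups were below detection.

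**Figure D2:**
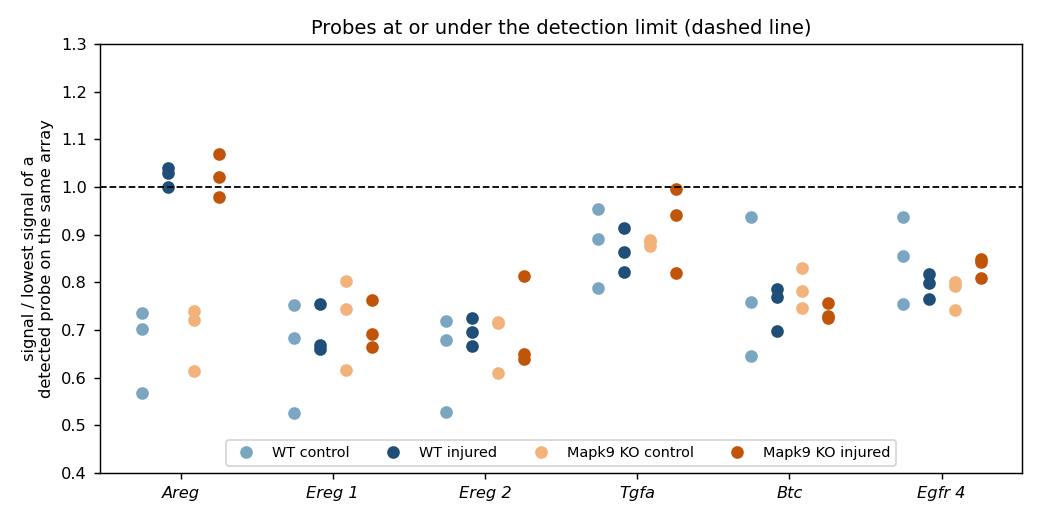
Signal of each probe at or under the detection limit, divided by the lowest signal of any detected probe on the same array (vertical axis, no unit); points are single arrays, coloured by group, and the dashed line marks a ratio of 1. The Areg points rose from 0.567 to 0.740 in controls to 0.978 to 1.07 post injury, while every Ereg, Tgfa, Btc and Egfr 4 point stayed under 1.

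Egfr, the receptor, was read by 4 probes of that name. Egfr 1 is annotated in the deposited signal table to transcript variant 1 and Egfr 2 and Egfr 3 to transcript variant 2, and Egfr 4, outside the normalized table, was undetected on all arrays (signals of 106.9 to 219.3). The first 30 of the 50 bases of the 3 detected probes are printed, as deposited, because the probes gave different changes and read different stretches of the transcripts.
Egfr 1: gagcctgtcaggtacctatcaggagcggta
Egfr 2: atgtctgccacctatgccacgccaactgta
Egfr 3: agtctcctcttttcctctcagtagcccaag

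Egfr 1 fell post injury in both genotypes. Its log2 level was 10.07, 9.86 and 9.66 on the WT control arrays and 8.65, 8.93 and 8.54 on the WT injured arrays. On the Mapk9 KO arrays it was 9.72, 9.95 and 9.31 in controls and 8.44, 8.51 and 8.29 post injury. No control array overlapped an injured array, and each of the 6 replicate numbers showed a fall, by 0.94 to 1.44 log2 units. The change was -1.15 in WT (SE 0.21, adjusted p = 0.00311 by limma), or 2.22-fold lower, and -1.25 in Mapk9 KO (SE 0.20, adjusted p = 0.000636), or 2.38-fold lower. The falls differed between genotypes by -0.10 (SE 0.28, adjusted p = 0.935).

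The variant 2 probes changed less. Egfr 2 had levels of 8.37, 7.05 and 7.82 on WT control and 7.36, 7.67 and 7.23 on WT injured arrays. The WT groups overlapped, since control replicate 2 was the lowest of the 6 arrays. In Mapk9 KO the levels were 7.88, 7.95 and 7.70 in controls and 7.37, 7.26 and 7.06 post injury, without overlap. The change of Egfr 2 was -0.33 in WT (SE 0.31, adjusted p = 0.49) and -0.62 in Mapk9 KO (SE 0.17, adjusted p = 0.0165), which is under the fold limit. For Egfr 3 the change was -0.61 in WT (SE 0.28, adjusted p = 0.141) and -0.52 in Mapk9 KO (SE 0.18, adjusted p = 0.0414), again under the fold limit. Egfr 3 ranged from 6.98 to 8.03 on WT control, 6.65 to 7.12 on WT injured, 7.33 to 7.73 on Mapk9 KO control and 6.96 to 7.17 on Mapk9 KO injured arrays. WT control replicate 2 was the lowest control array for Egfr 2 and Egfr 3. Among the WT controls only, it also had the lowest chondrocyte marker mean, 10.71. With 1 array left out at a time the WT change of Egfr 2 lay between -0.67 and -0.01. That of Egfr 3 lay between -0.90, without WT control replicate 2, and -0.37, always under the fold limit. Its adjusted p-values then ran from 0.0187 to 0.398 by limma.

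The unequal change was tested within arrays, in a comparison chosen after the data were seen. The log2 difference between Egfr 1 and Egfr 2 lay between 1.70 and 2.81 on WT control arrays and between 1.26 and 1.31 on WT injured arrays, and between 1.61 and 2.00 against 1.07 and 1.25 in Mapk9 KO. Only its change is read, because probes differ in brightness. It fell by 0.73 log2 units over both genotypes (exact permutation test within genotypes over 12 arrays, two-sided p = 0.005, the smallest of 400 permutations, and 0.005 after adjustment over 2 comparisons). The difference between Egfr 1 and Egfr 3 fell by 0.64 (exact permutation p = 0.005, adjusted 0.005). In WT it lay between 2.01 and 2.88 on control and between 1.48 and 2.00 on injured arrays. In Mapk9 KO these ranges were 1.98 to 2.22 and 1.31 to 1.48. Under the other normalizations and with each array left out, the changes lay between -0.84 and -0.56 and between -0.71 and -0.49, with exact permutation p-values of 0.005 to 0.02. In these values the probes for Egfr thus did not fall by equal amounts. The permutations did not keep arrays of the same replicate number together. Egfr 2 and Egfr 3 had signals of 202.2 to 538 and 197 to 453.1, and Egfr 1 of 365.9 to 1460.4. The lowest signal of a detected probe was 138.4 to 233.9 over the arrays. Whether nearness to background made the changes of Egfr 2 and Egfr 3 smaller was not tested.

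Another probe, named 9030024J15Rik in the deposited tables, carries a name that RefSeq lists as an older name of Egfr, and it was not counted among the 11. It fell from 10.56, 10.50 and 10.15 to 8.50, 8.98 and 8.50 in WT, a log2 change of -1.74 (SE 0.22, adjusted p = 0.000429 by limma). In Mapk9 KO it fell from 10.17, 10.57 and 9.84 to 8.52, 8.73 and 8.56, a change of -1.59 (SE 0.21, adjusted p = 0.000171). A probe named Hegfl, which RefSeq lists as an older name of Hbegf, was outside the normalized table and undetected on all 12 arrays, with signals of 110.4 to 209.2 and detection p-values of 0.0748 to 0.491. Whether the 9030024J15Rik probe and Egfr 1 read the same transcript was not tested.

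Errfi1, the feedback inhibitor, was detected on all 12 arrays and rose in parallel with Hbegf. Its log2 level was 12.16, 11.08 and 11.29 on WT control arrays and 13.91, 14.03 and 13.70 on WT injured arrays. On the Mapk9 KO arrays it was 11.20, 11.19 and 10.88 in controls and 14.01, 13.98 and 13.69 post injury. The control and injured arrays did not overlap. WT control replicate 1 stood above the other control arrays, as it did for Hbegf.

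The change of Errfi1 was 2.37 in WT (SE 0.28, adjusted p = 0.000294 by limma), or 5.17-fold, from 11.51 ± 0.58 to 13.88 ± 0.17 (SD, n = 3). In Mapk9 KO it was 2.80 (SE 0.18, adjusted p = 1.22e-06), or 6.98-fold, from 11.09 ± 0.18 to 13.89 ± 0.17. By replicate number the rise was 1.75, 2.96 and 2.41 in WT and 2.81, 2.79 and 2.81 in Mapk9 KO. The rises differed between genotypes by 0.43 (SE 0.35, 95% interval -0.31 to 1.18, adjusted p = 0.719). With each array left out in turn this difference lay between 0.11 and 0.65, and under the other alternatives between 0.39 and 0.70.

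**Figure D3:**
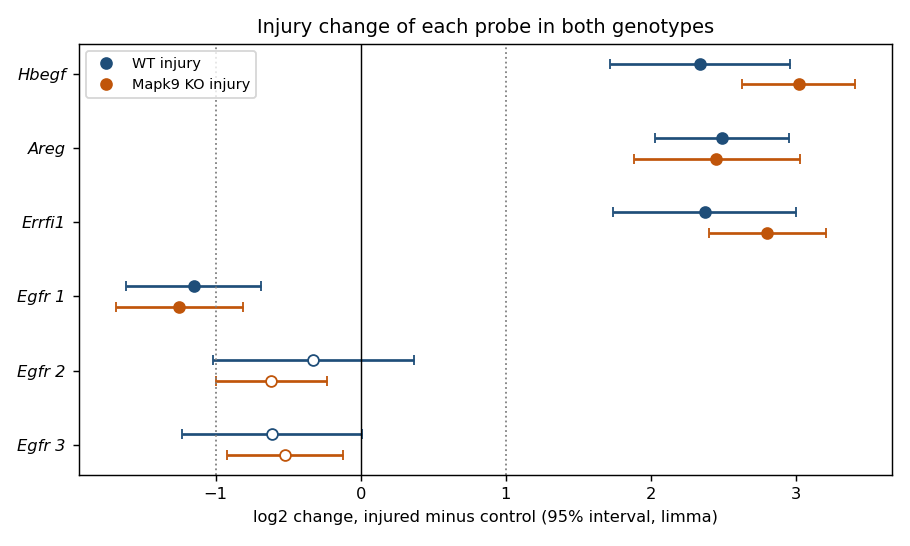
Log2 change from control to injured (horizontal axis) of the 6 probes in WT and Mapk9 KO, with 95% intervals from limma; filled points passed the threshold and dotted lines mark a fold of 2. The intervals of both genotypes overlapped for every probe, and Egfr 2 and Egfr 3 lay nearer 0 than Egfr 1.

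Genotype left the members without a call in any comparison of WT with Mapk9 KO. In control hips 0 of 4 genes passed (background 0.16%) and in injured hips 0 of 4 (background 0.216%) by limma. The methods' t-test called 0 of all 21004 probes in both comparisons, so its lack of a member call decides nothing. At an unadjusted p under 0.05 only Hbegf in control hips would count, with a difference of -0.64 (SE 0.29, 95% interval -1.28 to -0.01, unadjusted p = 0.0472, adjusted p = 0.766). Its WT and Mapk9 KO control arrays overlapped, and without 1 array at a time the difference lay between -0.94 and -0.37. The skeletal muscle marker mean differed too, at 11.51 to 12.76 on WT and 12.91 to 13.34 on Mapk9 KO control arrays. The part of tissue make-up in the genotype differences was not tested. Post injury the levels of Hbegf and Errfi1 differed between genotypes by 0.04 (95% interval -0.32 to 0.39) and 0.01 (95% interval -0.37 to 0.40). Egfr 1 was lower in Mapk9 KO than in WT injured hips by 0.22, 0.42 and 0.26 in replicates 1, 2 and 3, and its groups did not overlap, as held downwards for 9.47% of all probes. That difference of -0.30 (SE 0.17, 95% interval -0.68 to 0.08) did not pass (adjusted p = 0.504 by limma, and 0.228 with the replicate block). Without 1 array at a time it lay between -0.38 and -0.19. For the interaction, 0 of 4 genes passed (background 0%), and 0 of their 6 probes had an unadjusted p under 0.05, which 2088 of all probes had. With the replicate block, 112 of all probes passed for the interaction, and again no member. The intervals of the interaction reached 1.41 log2 units for Hbegf and 1.18 for Errfi1, so differences of that size were within reach of these arrays' error.

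The promoters of Areg and Errfi1 are shown because both held the same 8-base motif. The RefSeq promoters used here (GRCm38.p6) covered 6 start sites of 5 members, so that of Hbegf, the other member that rose, and that of Ereg were not searched. The 250 bases upstream of each start were searched on both strands for the AP-1 motif TGANTCA, the cyclic AMP response element TGACGTCA, which does not contain the AP-1 motif, and the CArG box bound by serum response factor. TGACGTCA began 61 bases before the Areg start and 51 bases before the second Errfi1 start, and it was in this window of 1.77% of all 27025 genes. It was in no window of Egfr, Tgfa, Btc or the first Errfi1 start. The AP-1 motif (7.82% of all genes) and the CArG box (1.62%) were in none of the 6 windows, which says only that those letters are not there. A match is a description and not a site shown to be bound. The capitals mark TGACGTCA in the windows at chr5:91139349-91139598 (Areg, plus strand) and chr4:150854820-150855069 (Errfi1, plus strand).
Areg: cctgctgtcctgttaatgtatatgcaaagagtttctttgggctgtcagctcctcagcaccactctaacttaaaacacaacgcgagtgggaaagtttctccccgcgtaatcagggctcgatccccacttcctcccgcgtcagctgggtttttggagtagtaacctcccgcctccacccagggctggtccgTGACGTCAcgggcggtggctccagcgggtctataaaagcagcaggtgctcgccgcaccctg
Errfi1: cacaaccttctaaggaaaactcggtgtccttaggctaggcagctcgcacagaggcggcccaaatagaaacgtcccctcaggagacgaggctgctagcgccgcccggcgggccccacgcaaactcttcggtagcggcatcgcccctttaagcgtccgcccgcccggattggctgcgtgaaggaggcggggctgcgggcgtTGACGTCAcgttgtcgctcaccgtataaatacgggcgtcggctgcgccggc

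Other genes of the pathway were counted on lists of 57 genes, of which 42 were in the table. In WT, 11 (26.2%) were higher and 1 (2.38%) lower post injury, against 8.7% and 8.58% of all genes, and in Mapk9 KO 13 (31%) were higher and 2 (4.76%) lower, against 11% and 10.8%. The higher genes include Nrg1, Cbl and Fosl1, and Spry4 in Mapk9 KO, which were undetected in controls and detected only on injured arrays, and the lower ones in Mapk9 KO include Egf through a probe undetected on every array, so the shares are read as a description. None of the 42 passed for genotype in control or injured hips or for the interaction by limma. Of these lists, which were chosen with earlier results of these data known, that of ERK-induced targets had the highest median change. It was 2.83 in WT and 3.13 in Mapk9 KO, against medians over all genes of -0.02 and -0.04. On that list 5 of 6 genes of the table were higher in both genotypes. Which pathway moved these genes was not tested. Ier3, an immediate early gene, rose by 3.50 (SE 0.22, adjusted p = 5.9e-06 by limma) in WT and 4.10 in Mapk9 KO. Fosl1, an AP-1 subunit, was undetected in controls and rose at least 8.94-fold in WT (adjusted p = 1.19e-06) and at least 8.48-fold in Mapk9 KO (adjusted p = 8.99e-07). Plaur, the urokinase receptor, rose by 2.82 and 3.16, and Phlda1 by 2.84 and 3.09. Egr1, the fifth and smallest of these rises and named after its values were seen, rose by 1.19 and 1.68. Etv5, the remaining gene of the list, had changes of -0.35 and -0.16 at its main probe and did not pass.

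Of the 11 other feedback inhibitors in the table, 3 were higher in WT and 5 in Mapk9 KO, and 0 passed as lower. Over all genes, 8.7% and 11% were higher and 8.58% and 10.8% lower, and the counts are read as a description. The probes of Dusp4, a phosphatase of ERK, disagreed: they changed by 2.76 (adjusted p = 6.07e-05 by limma), 1.25 (adjusted p = 0.00137) and, at the probe with the highest mean, -0.39 (adjusted p = 0.265) in WT. In Mapk9 KO the same probes changed by 2.47, 1.24 and -0.72, the last with adjusted p = 0.00597 by limma but under the fold limit. Socs4 rose by 1.17 and 1.24 at its brighter probe, with -0.12 and -0.17 at the other. Cbl, a ubiquitin ligase of the receptor, had fitted rises of 1.37 and 1.87, but it was undetected in controls and no fold above 1 was supported. Sh3kbp1, an adaptor of Cbl, passed in Mapk9 KO with 1.26 at 1 probe, which changed by 0.50 in WT. Spry4, named after its values were seen, was undetected in controls and passed in Mapk9 KO with a rise of at least 1.73-fold (adjusted p = 0.000829), while its fitted WT change of 0.88 was under the fold limit. Dusp6, an ERK phosphatase, changed by 0.00 and -0.03 at its main probe.

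Among 6 genes for ligand shedding, Timp3, an inhibitor of ADAM17, rose by 1.43 (adjusted p = 0.00123 by limma) in WT and 1.60 (adjusted p = 4.3e-05) in Mapk9 KO at its brightest probe. Its second probe rose by 2.14 in WT and at least 6.45-fold in Mapk9 KO, and the remaining probe had changes of 0.76 and 0.23. Adam12, a metalloprotease that can release Hbegf, fell by 2.12 (adjusted p = 0.000119) and by 1.98 (adjusted p = 2.95e-05) at its brighter probe, with -0.53 and -0.21 at the other. Adam17 itself had changes of -0.13 and -0.09 at its brighter probe. At the other they were -0.64 (adjusted p = 0.0779 by limma) and -0.13, and none passed the threshold.

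The 15 genes for adaptors and the ERK cascade in the table had a median change of 0.21 in both genotypes. Erbb2, the only other receptor of the family in the table, had changes of -0.56 (adjusted p = 0.093) and -0.49 (adjusted p = 0.0707). Of the 3 other ligands in the table, Nrg1 (neuregulin 1) was undetected in controls and rose at least 1.12-fold in WT (adjusted p = 0.00171), and no fold above 1 was supported in Mapk9 KO. An Egf probe passed in Mapk9 KO with a fitted fall of 1.58, but it was undetected on every array. The main Egf probe, detected on 8 arrays, had changes of -0.06 (adjusted p = 0.893 by limma) and -0.30 (adjusted p = 0.42) and did not pass.

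**Figure D4:**
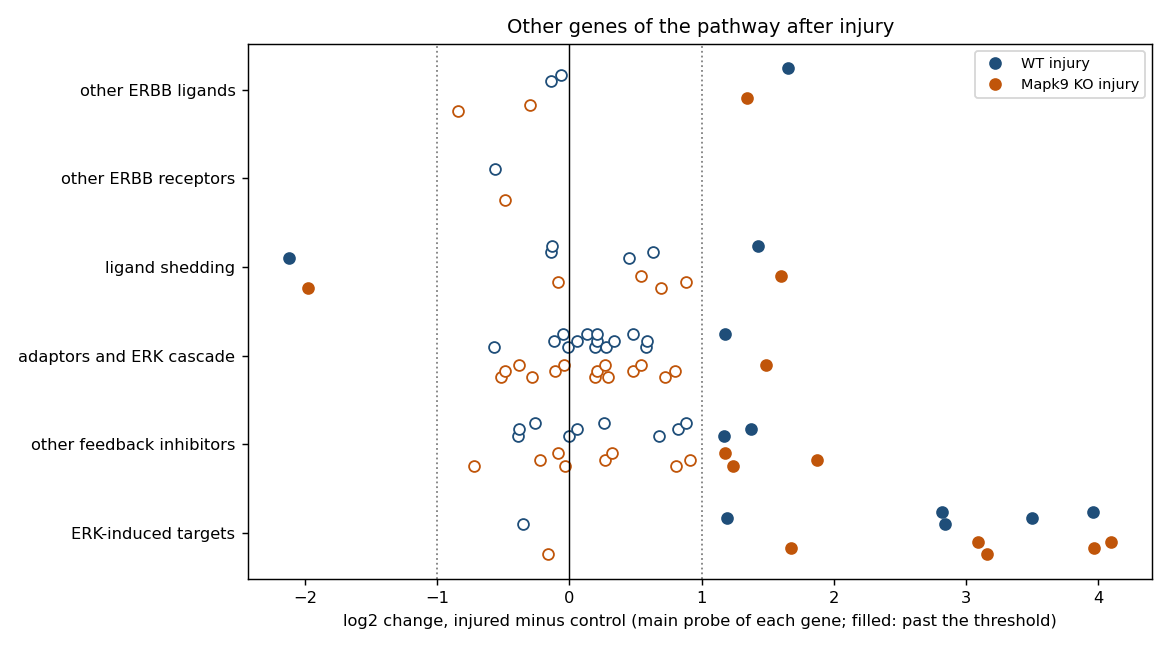
Log2 change from control to injured (horizontal axis) of the main probe, that with the highest mean, of each of the 42 pathway genes in the table, by list, in WT and Mapk9 KO; filled points passed the threshold and dotted lines mark a fold of 2; calls at other probes of a gene, counted in the text, are not drawn. The ERK-induced targets lay farthest to the right, with medians of 2.83 and 3.13, and the adaptors and ERK cascade lay near 0, with a median of 0.21.

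Across the 12 arrays, which share the injury contrast, the main probe of Errfi1 ran with that of Hbegf (Pearson r = 0.989) and of Areg (r = 0.972), Hbegf with Areg (r = 0.944), and Egfr 1 ran opposite to all of them (r = -0.863 to -0.885). The values of Areg, here and in the list of genes most like it, lay below detection on all 6 control arrays and 1 injured array. Of 14329 other genes, 410 had r above 0.95 with Hbegf, 330 with Areg, 321 with Egfr 1 and 483 with Errfi1. The genes most like Errfi1 were Socs3, a feedback inhibitor of cytokine signalling (r = 0.998), Nt5e (r = 0.9949) and LOC381140 (r = 0.9946). Those most like Hbegf were Trpm6 (r = 0.9942), Per1, a clock gene (r = 0.9937), and Cdsn (r = 0.9934). Those most like Areg were Vav3 (r = 0.9874), Abhd2 (r = 0.9847) and Gdf15 (r = 0.9842), and those most like Egfr 1 were Sh3pxd2b (r = 0.9936), Tspan17 (r = 0.9927) and Rcan3 (r = 0.9912).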

How the data were processed

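The authors deposited bead signal intensities of 45281 probes without background correction, each with a detection p-value, and log2 values of 21004 probes that they had corrected for background with negative controls and normalized with vsn. Between 16930 and 18969 probes were detected per array, medians of the log2 values lay between 7.554 and 7.704, and the number of arrays limits the precision. Members were found by probe symbol, and probes were named through RefSeq (GRCm38.p6) by accession (14489), symbol (2606), older symbol (1593) or gene ID (8), with 2308 file names kept. The members, lists and tests were chosen with earlier results of these data known.

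Injury was tested within each genotype, genotype within control and injured hips, and the interaction over 12 arrays, by lmFit and eBayes of limma 3.58.1 (R 4.3.3), tested first on simulated data. For a group in which no array detected a probe, "at least" sets the other group's mean against a floor, on each array the lowest detected value or, if higher, that of the probe. P-values measure the spread between these arrays. The exact permutation test was run in Python 3.11.15. Named were all member probes, at most 4 called genes of each pathway list with the smallest adjusted p, Mapk9, and the 3 genes most correlated with each member. A pathway gene that falls under this rule is not reported here.

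Replicate numbers are shared between groups. Deviations from group means correlated between 0.153 and 0.390 over 18 pairs of arrays with the same number and between -0.289 and 0.0825 over 36 other pairs, so the numbers were taken to pair the arrays. The main fits were not blocked, and fits blocked on that number were an alternative. The others were neqc (offset 16), also on all probes, quantile normalization of uncorrected signals, centring on array medians, a detection filter, all arrays in 1 fit, the label code number as a block, the methods' t-test, fold above 1.5, adjusted p under 0.01, the brightest probe of each gene, and omission of single arrays. Coordinates in the deposited tables name no build and were not used.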

Additional observations from a re-analysis of the deposited data

How the results depend on the processing

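The 4 members past the threshold in WT and in Mapk9 KO stayed at 4 with each array left out and at 3 or 4 under the other alternatives. Without background correction Areg lost its call in both genotypes, and with a fold limit of 1.5 Egfr 2 gained one in Mapk9 KO. The replicate block changed no member call, but raised the calls over all probes from 38 to 188 for genotype in injured hips and from 0 to 112 for the interaction. Pathway genes past the threshold fell from 12 to 7 in WT and from 15 to 9 in Mapk9 KO without background correction, and rose to 23 in Mapk9 KO with a fold limit of 1.5. The cause of these shifts was not tested. With arrays left out these counts were 12 to 13 and 15 to 17.

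Signs turned only for values that passed no test. With the code number as a block, the genotype difference was -0.01 for Egfr 3 in control hips and 0.09 for Areg in injured hips, and with array medians subtracted it was 0.00 for Errfi1 in injured hips. With each array left out, the difference in control hips ran from -0.22 to 0.28 for Areg, -0.25 to 0.41 for Egfr 2 and -0.29 to 0.24 for Egfr 3. In injured hips it ran from -0.03 to 0.10 for Hbegf, -0.16 to 0.13 for Areg, -0.05 to 0.18 for Egfr 3 and -0.08 to 0.11 for Errfi1. The interaction ran from -0.29 to 0.21 for Areg, -0.27 to 0.05 for Egfr 1, -0.61 to 0.05 for Egfr 2 and -0.15 to 0.38 for Egfr 3. Under all alternatives 516 values of member probes kept direction and side of the threshold, 2 lost a call, 1 gained one and 29 turned sign.

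Over all probes, calls in WT moved from 3086 to 1624 with the methods' t-test, 1140 without background correction and 5299 with a fold limit of 1.5, and in Mapk9 KO from 3934 to 1756 and 7323 with the last 2 of these. Genotype calls in control hips moved from 25 to 0 with that t-test, 14 on all probes, 13 without background correction and 44 with all arrays in the fit, and in injured hips from 38 to 0, 22 and 22 with the first 3 of these.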
